A study of Caenorhabditis elegans with 4 samples.

Results

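The right arm and the left centre of Caenorhabditis elegans chromosome IV hold 2 broad regions in which most piRNA genes lie. They were taken here by position alone, as the H3K36me3 peaks whose midpoints fall in chromosome IV from 4500000 to 7000000 (the left region, 2.5 Mb) or from 13500000 to 17200000 (the right region, 3.7 Mb), in coordinates of WormBase WS190. Replicate 1 had 207 such peaks of its 5973, with 107 in the left region and 100 in the right. Replicate 7 had 216 of 6223, with 107 in the left region and 109 in the right. The regions make up 35.5% of the chromosome and held 20.9% and 21.0% of its peaks.

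H3K36me3 was mapped by chromatin immunoprecipitation and sequencing in whole wild-type N2 worms at the L3 larval stage. The 2 immunoprecipitated samples, numbered 1 and 7, were made with the same Abcam antibody lot, and the labels name a separate input DNA sample as the control of each. All samples share the strain, the stage and the whole body as tissue. The labels do not say whether the samples came from separate cultures, so the spread between them may be technical. Whole-worm chromatin mixes somatic and germline nuclei, so that a strong mark in few cells and a weak mark in many cannot be told apart. The deposited lists give peaks and scores but no read counts, and the sequencing depth is unknown.

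Worm piRNAs, also called 21U-RNAs, are short RNAs of the germ line that are bound by the Piwi protein PRG-1 and guide the silencing of transposons and other foreign sequence. Most are transcribed as tiny independent units, each from its own promoter with a conserved upstream motif, and many lie in introns of protein-coding genes or between genes. H3K36me3 is deposited over the bodies of transcribed genes. In worms MET-1 does this along with transcription, and MES-4 maintains the mark in the germ line on genes that were expressed there before.

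The label was checked with the RefSeq gene table, which is on assembly WBcel235 and was therefore used for gene names and gene order alone. Of 15363 piRNA genes in it, 14714 (95.8%) are on chromosome IV. The 3281 protein-coding genes of that chromosome were cut in order into 20 equal blocks, and each piRNA gene was counted with the protein-coding gene before it. The piRNA genes formed 2 dense runs. One covers blocks 6 to 7, from str-172 to odr-8, with 2566 piRNA genes (17.4%) or 7.82 per protein-coding gene. The other covers blocks 18 to 20, from T23G4.2 to nas-6, with 11362 (77.2%) or 23.1 per protein-coding gene. The remaining 15 blocks had 0.319 per protein-coding gene. Along the chromosome the smaller run comes before the larger. The genes were not placed on the WS190 bounds of the left and right regions, since the builds differ.

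Both piRNA regions had less H3K36me3 than the rest of chromosome IV, and the right region had the least. Peaks covered 13.3% of the left region in replicate 1 and 13.2% in replicate 7 (mean 13.2% ± 0.102, SD, n = 2). They covered 7.27% and 6.99% of the right region (mean 7.13% ± 0.197). The rest of the chromosome was covered by 21.0% and 19.8% (mean 20.4% ± 0.844). The values of the 3 parts do not overlap, and each difference is many times the spread between replicates. Cover in the right region was 0.538 ± 0.0107 of that in the left. Against the rest of the chromosome, cover was 0.65 ± 0.0219 in the left region and 0.35 ± 0.00479 in the right. With 2 samples an exact sign-flip permutation test over samples cannot give a two-sided p below 0.5, so no p-values are given, and differences within each sample are set against the spread between replicates.

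The parts of chromosome IV outside the regions were not alike. The stretch between the regions was covered by 21.8% and 21.5% in replicates 1 and 7, and the part before the left region by 20.2% and 17.7%. The last 0.268 Mb, beyond the right region, had 15.4% and 14.0%. The right region was below each of these parts in both replicates, at 0.329 ± 0.00597 of the stretch between the regions and 0.486 ± 0.0208 of the last part. The left region was also below each of the larger parts, at 0.612 ± 0.0011 and 0.702 ± 0.0596 of them. It was below the last part in both replicates too, but by less.

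Both regions had fewer peaks per Mb than the rest of the chromosome, and the peaks of the right region were narrower in the median. There were 42.8 peaks per Mb in the left region in each replicate, 27.0 and 29.5 in the right region, and 69.5 and 72.2 in the rest of the chromosome. The median peak was 2518 bp wide in replicate 1 and 2432 bp in replicate 7 in the left region. In the right region it was 1762.5 and 1510 bp. In the rest it was 2281 and 2118 bp. The left region lay above the rest and the right region below it in each list. The stretch between the regions had a median of 2414 bp in replicate 1 and 2487 bp in replicate 7. The left region was above this stretch in replicate 1 but below it in replicate 7. The right region was below this stretch in both replicates. The part before the left region had a median as low as the right region in replicate 7, at 1567 bp, and 2036.5 bp in replicate 1. The difference in median width, right minus left, was -839 bp ± 118 (SD, n = 2), but -268 bp among the upper 50% of peaks by score, with -577.5 bp in replicate 1 but 42 bp, the other way, in replicate 7.

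**Figure D1:**
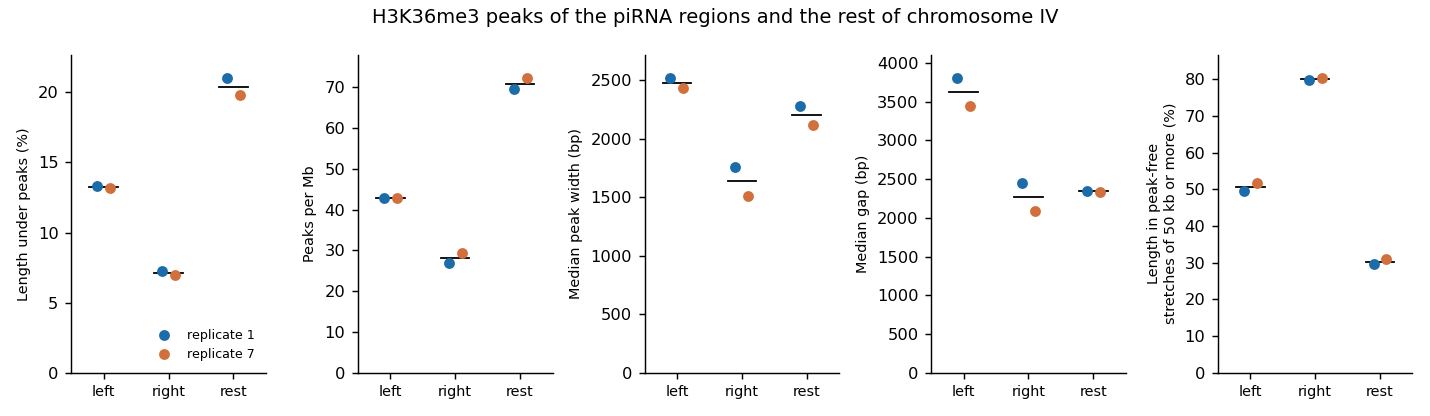
Each panel plots 1 measure (length under peaks in %, peaks per Mb, median peak width in bp, median gap in bp, length in peak-free stretches of 50 kb or more in %) for the left region, the right region and the rest of chromosome IV; points are the replicates and bars their mean. The right region is lowest in cover, at 7.27% and 6.99%, and highest in peak-free length, while its median gap is close to that of the rest.

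The interquartile range of widths was 1518.5 to 4265 bp in the left region and 1200.5 to 2854.5 bp in the right region in replicate 1. In replicate 7 it was 1533 to 3819.5 bp and 1165 to 2671 bp. Peaks under 1 kb were few, with 5 and 0 in the left region and 14 and 6 in the right region in replicates 1 and 7. Broad domains of 10 kb or more numbered 2 in each list in the left region, and 3 and 1 in the right region. They were 1.87% of the left peaks in both lists (exact Clopper-Pearson 95% interval 0.227 to 6.59%), and 3% (0.623 to 8.52%) and 0.917% (0.0232 to 5.01%) of the right peaks. The rest of the chromosome had 1.66% and 1.11%, inside these intervals. These and later intervals reflect counting error alone, and they take neighbouring peaks as if they were independent, which they are not.

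The score is not defined in the files and is used here only as a rank within its own list. The median peak of the left region stood at percentile 52.6 of all scores in replicate 1 and 55.97 in replicate 7. This was above the 48.8 and 47.6 of the rest of the chromosome. It was below the 53.7 and 57.5 of the stretch between the regions. The median peak of the right region stood at 39.8 and 38.2, close to the 41.2 and 38.1 of the part before the left region. Scores of 3100 or more, where values are tied, went to 18 and 19 peaks of the left region and to 13 peaks of the right region in each list. The right region thus held peaks at the top of the scale, at 13.0% and 11.9% of its peaks, against 16.8% and 17.8% in the left region and 15.5% and 11.4% in the rest.

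Cover was uneven along both regions. In windows of 500 kb, the left region was most covered at its upper end (6.5 to 7.0 Mb, 18.6% ± 0.143) and least from 6.0 to 6.5 Mb (8.79% ± 0.567). The right region was most covered at its lower end (13.5 to 14.0 Mb, 11.1% ± 0.520) and least from 16.0 to 16.5 Mb. That window had 1.70% and 1.72% of its length under peaks, from 5 peaks in each list. In the right region 6 of the 7 windows of 500 kb lay below 10% in both replicates. In the 22 windows of the rest of the chromosome the lowest value was 11.3% in replicate 1 and 11.1% in replicate 7. The last 200 kb of the right region, which fill no window, had 19.4% and 16.8%.

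**Figure D2:**
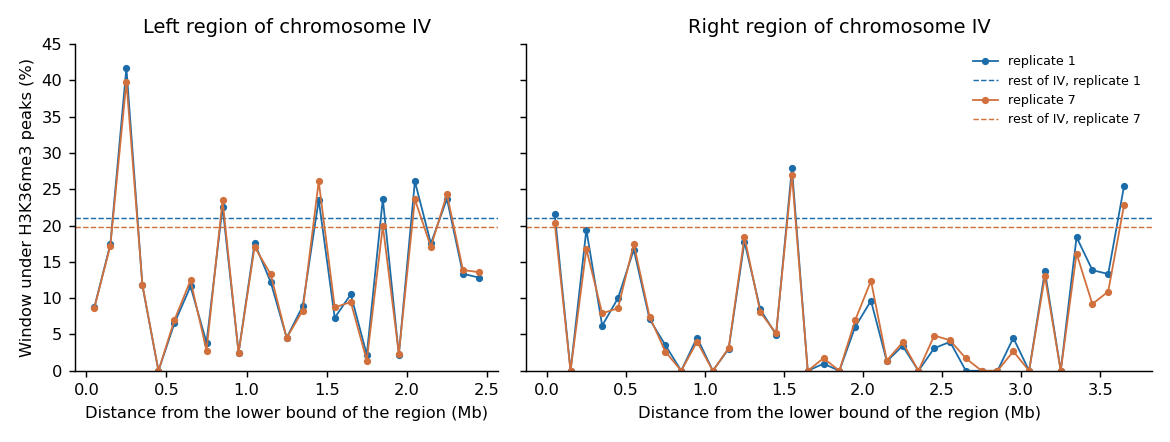
The share of each 100 kb window under H3K36me3 peaks (%) is plotted against the distance from the lower bound of the region (Mb), for the left region with 25 windows and the right region with 37; lines join the windows of a replicate, and dashed lines mark the cover of the rest of chromosome IV. The left region rises to 41.7% and 39.8% in 1 window, and 10 windows of the right region are at 0 in both replicates.

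At 100 kb the regions differed in the number of windows without peaks. In the right region 10 of 37 windows (27.0%, exact Clopper-Pearson 95% interval 13.8 to 44.1%) were free of peaks in both lists. The left region had 1 such window of 25 (4%, 0.101 to 20.4%) and the rest of the chromosome 2 of 112 (1.79%, 0.217 to 6.30%). The intervals of the left and right regions overlap. Windows below 5% cover numbered 21 and 20 of 37 in the right region, 6 of 25 in each list in the left region, and 8 and 10 of 112 in the rest. Windows with 30% or more were absent from the right region in both lists. There was 1 in the left region, from 4.7 to 4.8 Mb (41.7% and 39.8%), and 24 and 25 in the rest. The most covered window of the right region, from 15 to 15.1 Mb, had 27.9% and 27.0%. The top 20% of windows held 54.7% and 53.7% of the cover of the right region, 41.6% and 41.7% of that of the left region, and 36.8% and 37.3% of that of the rest. The covered shares of the replicates had a Pearson's r of 0.991 across the 25 left windows and 0.986 across the 37 right windows, and windows of 1 library are not independent replicates.

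The parts were ordered differently by their median gap than by their number of peaks per Mb. The median gap between neighbouring peaks was 3803 and 3448 bp in the left region, 2445.5 and 2093 bp in the right region, and 2342.5 and 2338 bp in the rest of the chromosome. By its median gap the right region was therefore close to the rest, although it had 0.398 ± 0.0133 of the peaks per Mb. The mean gap was 20.3 kb in both replicates in the left region, 34.3 and 31.6 kb in the right region, and 11.4 and 11.1 kb in the rest. A mean gap follows almost wholly from peaks per Mb and cover, so it is no separate measure of spacing. The longest 10% of gaps began at 64.2 and 58.2 kb in the left region, 112 and 117 kb in the right region and 33.9 and 35.1 kb in the rest. Gaps under 1000 bp made up 32.7% in both replicates in the left region, 34.0% and 36.7% in the right region, and 33.9% and 36.3% in the rest. Short gaps were thus about equally frequent in the 3 parts, and the parts differed in the long ones. The difference in median gap, right minus left, was -1356 bp ± 1.77 (SD, n = 2). That SD is small because both medians were lower in replicate 7 by similar amounts. The median gap itself had an SD of 251 bp in the left region and 249 bp in the right. The difference depended strongly on the setting, and was -4948 bp with peaks within 500 bp joined. It was -529 bp when each list was limited to 15 Mb of its best-scoring peaks (-896 bp in replicate 1 and -162.5 bp in replicate 7). With the upper 50% of peaks by score it came to -3406 bp in replicate 1 but to 1997 bp in replicate 7, so the direction differed between the libraries.

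**Figure D3:**
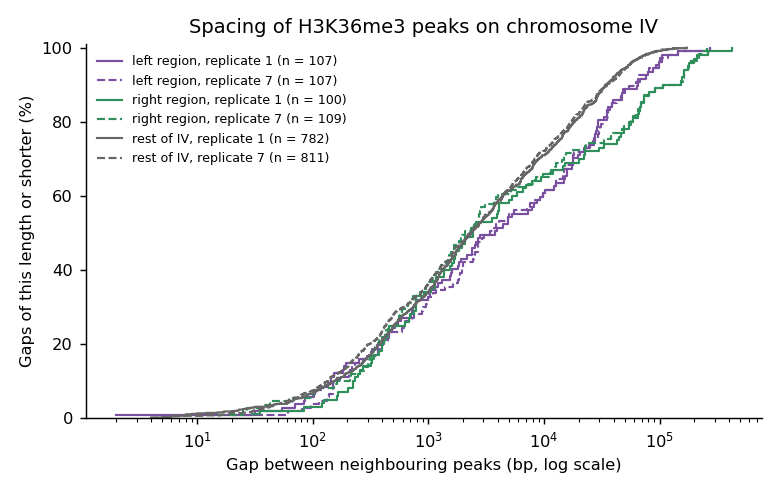
The cumulative share of gaps (%) is plotted against the gap between neighbouring peaks (bp, log scale) for the left region, the right region and the rest of chromosome IV; solid lines are replicate 1 and dashed lines replicate 7. The curves run together below 1000 bp, and the right region has the longest tail, with its top 10% of gaps starting at 112 and 117 kb.

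To describe this clustering, peaks of a list that were parted by less than 10 kb were linked into islands, a limit that was chosen after the gaps had been seen. The right region had 34 islands in replicate 1 and 38 in replicate 7, or 9.19 and 10.3 per Mb. The left region had 42 in each list, or 16.8 per Mb, and the rest of the chromosome had 20.2 and 20.1 per Mb. Islands per Mb of the right region were 0.579 ± 0.0455 (SD, n = 2) of those of the left. An island held a mean of 3.09 and 3.03 peaks in the right region, 2.55 in both replicates in the left region, and 3.41 and 3.55 in the rest. The median was 2 peaks in both regions in both replicates, and 2 and 3 in the rest. The mean of the right region includes an island of 15 and 18 peaks across its lower bound, part of which lies outside the region. Peaks filled 68.0% and 69.0% of the span of the right islands, 72.9% and 72.6% of that of the left islands, and 67.6% and 65.3% of that in the rest. The right islands were thus covered less densely than the left islands and slightly more than those of the rest, and their peaks had a smaller mean width (2683 and 2324 bp, against 3112 and 3078 bp in the left region). The comparison inside islands depended on the limit. With islands linked by gaps under 20 kb the covered share of span, right over left, was 1.11 and 1.03 in replicates 1 and 7, against 0.933 and 0.95 at 10 kb, and the same ratio for peaks per island was 1.01 and 1.07, against 1.21 and 1.19.

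**Figure D4:**
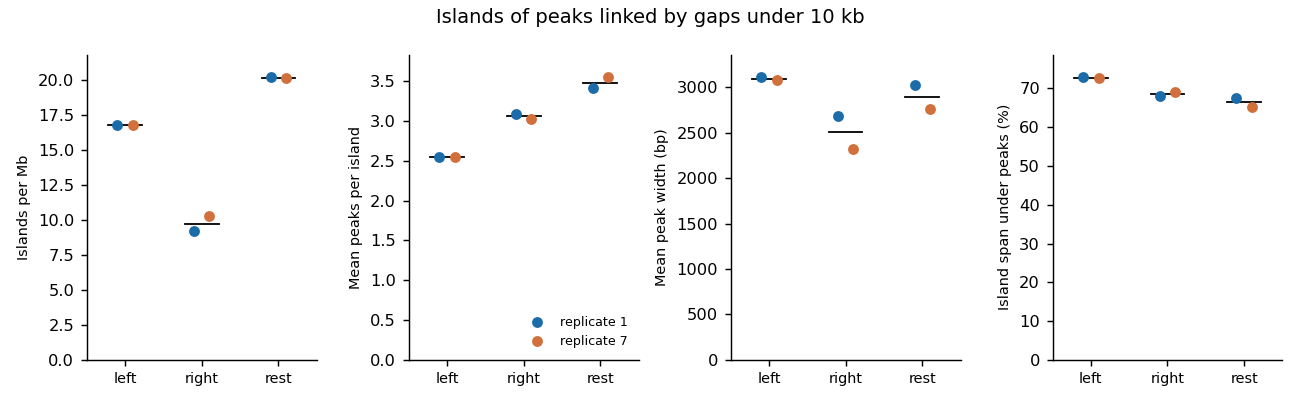
Islands per Mb, mean peaks per island, mean peak width (bp) and the share of island span under peaks (%) are plotted for the left region, the right region and the rest of chromosome IV, with islands linked by gaps under 10 kb; points are the replicates and bars their mean. The right region has the fewest islands, at 9.19 and 10.3 per Mb. The left region has the lowest mean of peaks per island, at 2.55 in both replicates, while the median is 2 in both regions.

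A few islands carried much of the mark of the right region. In replicate 1 the most covered was a group of 9 peaks over 46.9 kb (17079311 to 17126230) with 36.5 kb under peaks, or 12.9% of the peak length of the region's islands. In replicate 7 the corresponding group began at 17101549 and held 4 peaks over 24.6 kb. An island across the lower bound, from 13476889 to 13538832, had 15 peaks in replicate 1, and 18 in replicate 7 (13477172 to 13538087). It was counted with the right region by its midpoint, so that part of it lies outside the region. The third, near 15 Mb, had 10 peaks over 42.0 kb in replicate 1 (15008268 to 15050271) and 12 over 42.6 kb in replicate 7 (15008310 to 15050923). Together the 3 most covered islands held 35.3% of the island cover of the right region in replicate 1 and 29.4% in replicate 7. In the left region no island held more than 6.81% in replicate 1 or 7.22% in replicate 7, and the 3 most covered held 20.1% and 20.03%.

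Long unmarked stretches made up most of the right region. Stretches of 50 kb or more without a peak took up 79.9% and 80.3% of the right region in replicates 1 and 7. They took up 49.7% and 51.8% of the left region and 29.6% and 31.0% of the rest of the chromosome. The difference, right minus left, was 29.3 percentage points ± 1.21 (SD, n = 2). It was 18.9 points with the upper 50% of peaks by score, and 12.6 points when stretches of 20 kb or more were counted. Stretches of 100 kb or more took up 59.3% and 59.9% of the right region, 24.9% and 29.6% of the left region, and 7.90% and 7.60% of the rest. Inside such a stretch H3K36me3 may still be present below the level at which the authors called peaks.

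Taking both lists together, 22 stretches of 100 kb or more on chromosome IV had no peak in either, and 12 of them were in the right region, 4 in the left region and 6 in the rest. Stretches of 50 kb or more numbered 23 in the right region (6.22 per Mb), 12 in the left region (4.80 per Mb) and 41 in the rest (3.64 per Mb). The longest of the chromosome was in the left region, 271 kb from 4812290 to 5083274. It was followed in that region by 144 kb (5210822 to 5354350) and 105 kb (6417748 to 6522630). The 3 longest of the right region were 258 kb (16169457 to 16427045), 220 kb (15722007 to 15942445) and 212 kb (15050924 to 15262904). The longest of the rest was 172 kb, between the regions (12859848 to 13032142), and was shorter than 6 stretches of the right region.

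Long stretches of the right region often stood next to each other with little between them. Stretches of 50 kb or more that were parted by at most 10 kb were joined into chains, a description that was added after the stretches had been seen. The right region had 5 such chains, which together spanned 2159.6 kb or 58.4% of it. The left region had 0, and the rest of the chromosome had 5 that spanned 8.12% of it. The longest chain, 641 kb from 16006169 to 16646817, held 4 stretches and 3 peaks in each list, with 6.24 kb (0.973%) under a peak of either list. The next, 506 kb from 14115750 to 14621993, held 3 stretches and 3 peaks in each list, with 8.20 kb (1.62%) marked. The others of the right region were 395 kb (15050924 to 15446154), 387 kb (15554990 to 15942445) and 230 kb (13538833 to 13768819), with 0.686%, 1.41% and 0.457% marked.

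A single weak peak could decide the length of a stretch. In replicate 1 the longest gap of the right region was 421 kb (421006 bp), which is longer than any gap of either list in the left region. In replicate 7 the same span was parted by a peak of 1709 bp (16167748 to 16169456), and its longest gap was 258 kb (257592 bp). That peak was the highest-scoring of replicate 7 in the right region without a partner in replicate 1. Its score of 190.06 stood at percentile 24.2 of its list, and the nearest replicate 1 peak was 161709 bp away.

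The strongest peaks of both regions were found in both lists. In the left region a domain of 10.7 kb had the score 3100 in replicate 1 (4799447 to 4810123) and in replicate 7 (4799462 to 4810159), and it was the widest peak of the region in both. It lay shortly before the longest unmarked stretch of the chromosome. The second widest, 10.3 kb, was also at 3100 in both (5538229 to 5548537 in replicate 1 and 5538135 to 5548483 in replicate 7), and the third was 9.40 and 9.36 kb wide (4706528 to 4715927 and 4706719 to 4716078). The highest score of the left region was 3208.62, for a replicate 1 peak of 4942 bp (6328804 to 6333745) that overlapped 1 replicate 7 peak over 87.7% of its length.

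In the right region a domain of 10.98 kb in replicate 1 (15037186 to 15048164) matched the widest peak of replicate 7, 10.9 kb (15037115 to 15048049), and both had the score 3100. The widest peaks of replicate 1 were cut differently in replicate 7. Its domain of 14.7 kb (17104092 to 17118758) overlapped 2 replicate 7 peaks, the wider of which was 7.99 kb (17104076 to 17112060). Its domain of 14.4 kb (16849116 to 16863512) overlapped 3. In replicate 7 the second widest peak was 9.38 kb (16646818 to 16656193), and it overlapped 1 replicate 1 peak over 97.5% of its length. The highest score of the right region was 3105.58, for a replicate 1 peak of 3442 bp (15468085 to 15471526) that lay wholly under a replicate 7 peak.

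The replicates marked much the same sequence in both regions. The base pairs under a peak in both lists were 87.3% of those under a peak in either in the left region, 80.1% in the right region and 81.2% in the rest of the chromosome. Of the left peaks, 92.5% (99 of 107, exact Clopper-Pearson 95% interval 85.8 to 96.7%) in replicate 1 and 95.3% (102 of 107, 89.4 to 98.5%) in replicate 7 overlapped a peak of the other list by at least 1 bp. Of the right peaks, 89.0% (89 of 100, 81.2 to 94.4%) and 91.7% (100 of 109, 84.9 to 96.2%) did. The intervals of the regions overlap, and those of both regions also hold the shares of the rest, 88.3% and 94.3%. Right minus left was -3.55 percentage points, and it was 2.85 points with the upper 50% of peaks by score.

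Where 1 peak matched 1 peak, the replicate 7 peak had a median of 0.996 of the replicate 1 width over 82 left pairs and 0.992 over 76 right pairs. The starts differed by a median of 89 and 87 bp and the ends by 88.5 and 107 bp. Replicate 1 peaks that overlapped 2 or more replicate 7 peaks numbered 8 in the left region and 11 in the right region, and 5 and 2 were cut the other way. Peaks without a partner were narrow, with medians of 989.5 and 1128 bp in the left region (8 and 5 peaks) and 1002 and 1408 bp in the right region (11 and 9 peaks). The highest-scoring of them in replicate 1 were at 15013953 to 15015049 (score 293.88) and 17094345 to 17095635 (216.23) in the right region, and at 4787077 to 4787987 (75.45) and 6813122 to 6814162 (72.29) in the left. In replicate 7 they were the right peak named above and 13510322 to 13512038 (135.41), and 5179726 to 5181385 (188.35) and 6764298 to 6765343 (89.73) in the left.

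The bounds fell in different surroundings. At the lower bound of the left region the nearest replicate 1 peaks were 1167 bp wide with a score of 144.59 outside and 2692 bp wide with 591.35 inside. At its upper bound they were 4762 bp with 3071.21 inside and 3414 bp with 2454.02 outside. In replicate 7 the nearest peaks were 1222 bp (252.21) and 2682 bp (839.69) at the lower bound, and 1271 bp (64.25) and 3528 bp (1583.87) at the upper. The inside peak at the upper bound was a different one in each list. Its midpoint lay 82973.5 bp from the bound in replicate 1 and 24990 bp in replicate 7. The lower bound of the right region cut through the island described above, with replicate 1 peaks of 3111 bp (963.64) outside and 1369 bp (148.22) inside, and replicate 7 peaks of 1076 bp (79.71) and 1106 bp (132.00). A peak spanned the upper bound in each list and counted as a member, 1305 bp wide with a score of 188.35 in replicate 1 and 1160 bp with 267.64 in replicate 7. The nearest outside were 2255 bp (249.28) and 1655 bp (90.18).

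The regions also differ in their place along the chromosome. The left region lies from 25.8 to 40.1% of the length of chromosome IV and the right region from 77.3 to 98.5%, which is in the right arm. The same relative positions were therefore measured on the other chromosomes. At the right position peaks covered 23.6% ± 1.93 (SD, n = 2) of chromosome I, 22.8% ± 1.80 of II, 27.2% ± 2.44 of III, 7.99% ± 1.37 of V and 9.65% ± 0.0263 of X, against the 7.13% ± 0.197 of IV. Chromosomes IV and V did not differ there beyond the spread of V, which was at 8.96% and 7.02%. At the left position cover was 35.1% ± 0.269 on I, 22.8% ± 0.0180 on II, 37.8% ± 0.306 on III, 12.0% ± 0.244 on V and 9.01% ± 0.0373 on X, and the 13.2% ± 0.102 of IV stood between II and V.

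Narrow peaks at the right position were not limited to chromosome IV. The median width there was 1905 and 1449.5 bp on V, 2058 and 1602.5 bp on III, 2194.5 and 1684 bp on II and 2230 and 1666 bp on I in replicates 1 and 7, against 1762.5 and 1510 bp on IV. It was 2306 and 2357 bp on X. At the left position it was 2518 and 2432 bp on IV, 2459 and 2407.5 bp on V, 1803.5 and 2066 bp on X and 2632 bp or more on I, II and III.

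Set against the cover of the whole chromosome, the right position stood at 0.431 on IV (0.428 and 0.433 in replicates 1 and 7), the lowest of the 6 chromosomes in both lists. It stood at 0.731 on V (0.804 and 0.658) and from 0.848 to 1.13 on I, II, III and X. The left position stood at 0.80 on IV (0.784 and 0.816), also the lowest in both lists, and from 0.985 to 1.36 on the others. Stretches of 50 kb or more without peaks took up 80.1% ± 0.331 of the right position on IV and 77.1% ± 1.72 on V, then 54.3% ± 0.919 on X and 36.6% ± 0.547 or less on I, II and III. At the left position they took up 50.8% ± 1.54 on IV, 55.4% ± 1.09 on V, 52.3% ± 3.21 on X and 28.4% ± 2.04 or less on the others. In both replicates IV was above V at the right position and below it at the left. What piRNA genes, gene content and the position in an arm each contribute was not tested.

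**Figure D5:**
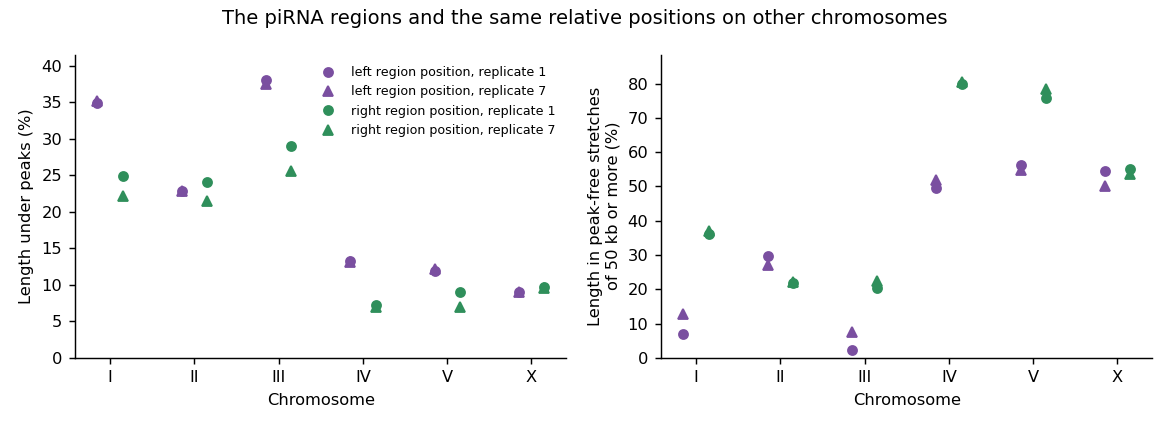
The length under peaks (%) and the length in peak-free stretches of 50 kb or more (%) are plotted for the 2 piRNA regions of chromosome IV and for the same relative positions on the other chromosomes; circles are replicate 1 and triangles replicate 7. At the right position IV, V and X have the lowest cover, with means of 7.13%, 7.99% and 9.65%.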

How the data were processed

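Each immunoprecipitated sample has 1 peak list of its own, deposited by the authors. Per the file headers, positions refer to WormBase WS190. Per the labels' protocols, chromatin was crosslinked for 10 minutes in 1% formaldehyde, and fragments of 250 to 500 bp were amplified for 18 cycles. BWA is named in the submitters' processing notes. Its version is not given in the sources used here, nor is how the peak caller was set. Peak names carry MACS and the source column MA2C. The score that the authors deposited for each peak is not defined in the headers and served only for ranks and cutoffs inside 1 list. No values of the input samples were analysed here.

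Peaks were placed by their midpoint, and covered bases were clipped at the bounds of a region. The rest of IV is all of the chromosome outside the regions, up to the last peak end in either list (17.5 Mb). Gaps, islands and stretches were placed by their midpoints, and shares of length in stretches were clipped. The regions and measures were chosen with earlier results of these data known. Islands, chains and the same positions on other chromosomes were added after seeing the data. Peaks named are, per list and region, the 3 highest-scoring (ties by width), the 3 widest and the 2 highest-scoring without a partner, with the 3 longest stretches free in both lists, the extreme 500 kb windows and the peaks at the bounds. Genes under peaks are not named and no sequence is printed, because no genome of this build was used here. Interval code was tested on simulated data against base-by-base counts. Python 3.11.15, numpy 2.4.6, pandas 2.3.3, scipy 1.17.1 and matplotlib 3.10.9 were used.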

Additional observations from a re-analysis of the deposited data

How the results depend on the processing

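Of 52 alternative values, not counting those that leave out a replicate, 17 stayed within the SD between replicates, 34 moved by more, and 1 reversed; the cause was not tested. Islands and the cuts of the right region were chosen after seeing the data. With the upper 50% of peaks by score, cover was 0.489 (right over left), 0.683 (left over rest) and 0.333 (right over rest), and peaks per Mb were 0.48 (right over left). Right minus left was then -268 bp in median width (-577.5 in replicate 1 and 42 in replicate 7), -704.5 bp in median gap (-3406 and 1997), 18.9 points in unmarked length and 2.85 points in peaks shared with the other list, the last reversed from -3.55 (-5.51 in replicate 1 and 11.2 in replicate 7). With 15 Mb of the best-scoring peaks per list these were 0.487, 0.682, 0.331, 0.53, -697 bp, -529 bp, 21.5 points and -5.46 points. With bounds moved inward by 250 kb, cover was 0.574 (left over rest) and 0.31 (right over rest), and right minus left was -587 bp in width, -892 bp in gap, 26.0 points in unmarked length and -2.39 points in shared peaks (0.855 in replicate 1). With peaks within 500 bp joined it was -1031 bp, -4948 bp and -5.40 points in shared peaks. Equal numbers of peaks gave -1409 bp in gap, counted as moved against an SD of only 1.77 bp, and -3.26 points in shared peaks. Against the stretch between the regions alone, cover was 0.612 (left) and 0.329 (right). Stretches of 20 kb or more gave 12.6 points. Shared peaks were -5.05 points with 50% of the peak overlapped and -9.28 with reciprocal 50% overlap. With islands linked by gaps under 20 kb, islands per Mb were 0.665, right over left. Cover, right over left, was 0.614 for the part of the right region nearer the centre and 0.463 for the part nearer the end. Leaving out each replicate, which with 2 samples gives the other one's value and is no test of stability, gave 0.531 to 0.546 for cover (right over left), 0.634 to 0.665 (left over rest), 0.346 to 0.353 (right over rest), 0.631 to 0.688 for peaks per Mb, -922 to -755.5 bp for width, -1358 to -1355 bp for gap, 28.5 to 30.2 points for unmarked length and 0.547 to 0.611 for islands. It gives no value for shared peaks, which need both lists.

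Immunoprecipitated samples were not compared with input samples as pairs, because values of the input samples, the only other group, were not analysed. Regions were compared within each replicate throughout. The lists hold no counts, so depth is unknown and sequence below the authors' calling level could not be compared.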
